A study of Mus musculus with 4 samples.

Results

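Dividing cells of the embryonic cortex switch on 2 large sets of genes in turn, one while DNA is copied and one while the cell prepares for and passes through mitosis. The members described here were 43 such genes: 16 of S phase, 24 of G2 and M phase and 3 of G1. They were listed by name, by a rule that uses no measured value but was set with earlier results of these data known, and all 43 were found once each among the 56884 genes counted in single nuclei of the mouse cortex. Their transcripts were followed from progenitors to neurons and compared between *Dnmt1* knockout (KO) and control embryos.

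In S phase the MCM helicase opens the DNA, the sliding clamp PCNA holds the polymerases on it, primase and DNA polymerase alpha start each new strand, and ribonucleotide reductase and thymidylate synthase supply the nucleotides. In G2 and M phase, topoisomerase and chromosomal kinesins shape the chromosomes, kinetochore proteins attach them to the spindle, the spindle checkpoint holds division back until all are attached, and cyclin B with CDK1 drives entry into mitosis. D-type cyclins with CDK6 act earlier, in G1, where a cell commits to a further division. In the cortex, radial glia divide at the ventricle, *Eomes*-expressing intermediate progenitors divide a limited number of times away from it, and their neuronal daughters leave the cycle for good.

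The data were single-nucleus RNA sequencing counts from the frozen medial neocortex of mouse embryos at E16.5, with 2 libraries per genotype. Controls were *Sst-Cre/tdTomato* and the Dnmt1 KO was *Sst-Cre/tdTomato/Dnmt1 loxP2*, so both groups carried the same Cre and reporter. Cre is driven here from the somatostatin gene, which postmitotic interneurons express, so the dividing progenitors of the cortex are not the cells in which *Dnmt1* was targeted, and the study asked whether they are affected from outside. Control replicate 2 was the only library of batch 2 and was spread over 2 sublibraries, whereas the other 3 were of batch 1 with 8 sublibraries each.

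Of 29656 retained nuclei, those of each library were sorted by detected marker transcripts and not by any of the 43 genes. The *Pax6/Slc1a3* gate took nuclei with a transcript of both radial glial genes and none of *Eomes*, *Neurod2*, *Neurod6* or *Gad2*, and held 754 and 805 nuclei in the KO and 405 and 292 in the control libraries (replicates 1 and 2 in order, here and throughout). The *Pax6/Slc1a3/Eomes* gate, with *Eomes* added, held 181 and 250 against 128 and 105, and the *Eomes* gate, with *Eomes* but not both radial glial genes, held 199 and 320 against 121 and 42. The *Eomes/Neurod* gate also required *Neurod2* or *Neurod6*. The excitatory neuron gate required one of these 2 genes and none of *Eomes*, *Pax6*, *Slc1a3* or *Gad2*. The inhibitory neuron gate required *Gad2* with *Gad1* or *Dlx6os1*, and none of *Eomes*, *Neurod2* or *Neurod6*. Only nuclei with both *Pax6* and *Slc1a3* were left out of it, so nuclei with either gene alone stayed in. Levels are CPM, the counts of a gene scaled to a fixed total of transcripts of a gate in a library. CPM are not scaled to gene length, so the part of a list sum that a gene holds can also depend on its length.

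Retained nuclei had a median of 12274 to 12401 transcripts in the batch 1 libraries and 21140 in control replicate 2, with 75338095 to 172783347 transcripts per library in all, and no cell barcode was shared between libraries. *Dnmt1* stood at 62.2 and 48.4 CPM in the inhibitory gate of the KO libraries and at 63.1 and 59.5 CPM in the controls, so KO replicate 2 was lowest and KO replicate 1 lay among the controls. A deleted part cannot be read from counts of the whole gene, so these values do not check the knockout. *Dnmt1* was lower in both KO libraries than in both controls in the *Eomes* gate (44.2 and 36.8 against 60.4 and 57.7 CPM) and the excitatory gate (44.8 and 39.1 against 46.3 and 46.3 CPM), and the groups overlapped in the *Pax6/Slc1a3* gate (121 and 87.2 against 124 and 119 CPM). In nuclei with both *Sst* and *Gad2*, *Dnmt1* stood at 76.1 and 46.1 against 81.2 and 66.5 CPM, on 18 to 99 transcripts. *Xist* was at 1157 to 1281 CPM over all nuclei of both first replicates and at no more than 4.13 CPM in both second replicates, so the sex of the embryo coincided with the replicate number. The radial glial marker list summed to 2125 to 3362 CPM in the *Pax6/Slc1a3* gate and 265 to 527 CPM in the *Eomes* gate, with all 10 genes detected in both, and the intermediate progenitor list to 143 to 231 CPM and 1131 to 1497 CPM. The *Eomes* gate departed from its name in part, since its Cajal-Retzius list reached 1570 to 7776 CPM, most of it *Reln*, and nuclei with *Trp73* or at least 5 *Reln* transcripts made up 16.1% and 11.3% of it in the KO and 5.79% and 19.0% in the control libraries. The inhibitory gate of control replicate 1 also stood apart, with an inhibitory marker list of 5359 CPM against 8207 to 9560 CPM in the other libraries.

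All 43 genes were higher in the *Pax6/Slc1a3* gate than in excitatory neurons (edgeR quasi-likelihood test with library as a block, Benjamini-Hochberg adjusted p under 0.05 over all genes), where 35.5% of the 14420 genes tested were higher. The median log2 difference was 4.69 over the 43 genes and 0.00 over all genes tested. The G2/M genes spanned 2.13 (*Ccnb2*) to 6.75 (*Iqgap3*) with a median of 5.62, the S genes spanned 0.79 (*Mcm7*) to 5.01 (*Mcm3*) with a median of 3.05, and the 3 G1 genes had a median of 3.25. All 43 were also called higher with each library left out in turn, and under every other setting tried but thinning to 5000 transcripts per nucleus, where 42 of 42 tested were. Scaling by library size alone put the median of all genes at 0.50, and that of the members at 5.19.

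The summed G2/M genes came to 4011 and 4061 CPM in the KO and 3783 and 3922 CPM in the control libraries in the *Pax6/Slc1a3* gate. They fell to 1561 and 2333 against 1664 and 2244 CPM with *Eomes* added, then to 519 and 724 against 689 and 355 CPM in the *Eomes* gate. In the *Eomes/Neurod* gate they stood at 537 and 642 against 510 and 566 CPM, and in excitatory neurons at 49.2 and 69.8 against 89.1 and 42.8 CPM. Each library therefore dropped at every step but that from the *Eomes* to the *Eomes/Neurod* gate, where KO replicate 1 and control replicate 2 were higher in the second gate and the other 2 libraries lower.

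**Figure D1:**
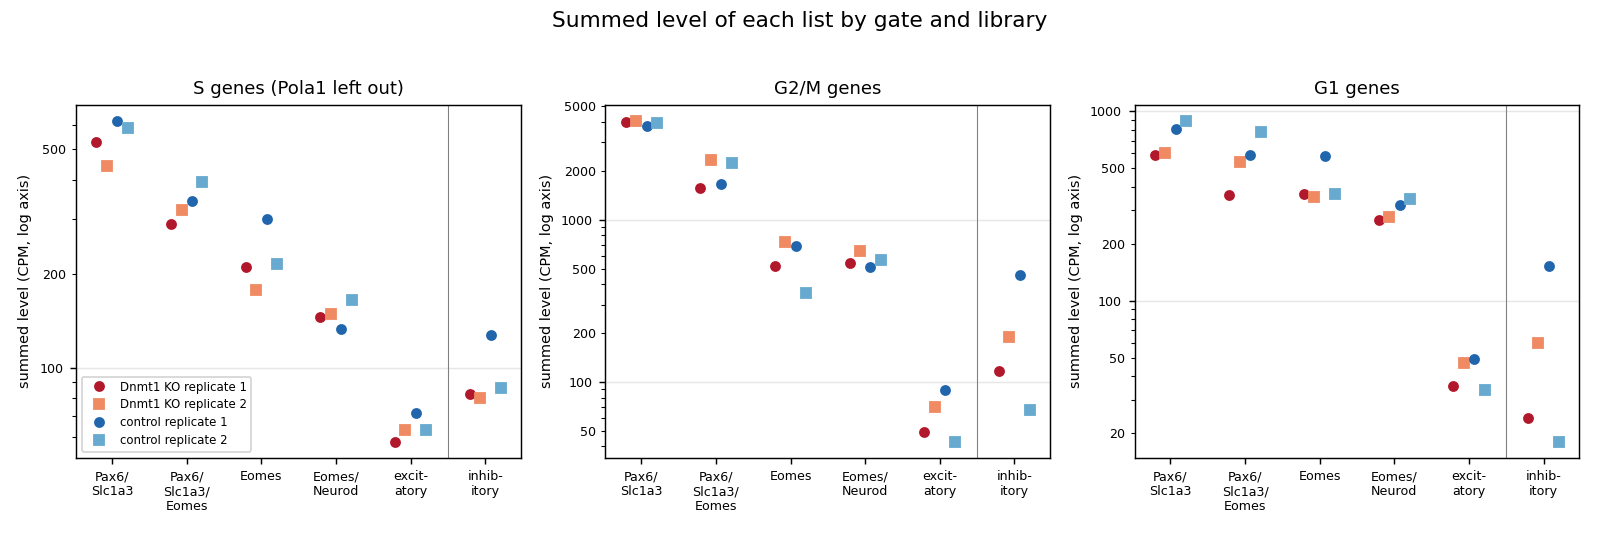
Summed CPM (log axis) of 15 S genes, with *Pola1* left out, of the 24 G2/M genes and of the 3 G1 genes in 6 gates, 1 point per library. The G2/M sum lies at 3783 to 4061 CPM in the Pax6/Slc1a3 gate and at 42.8 to 89.1 CPM in excitatory neurons, while the S sum covers a narrower range, from 442 to 616 CPM down to 58.2 to 71.8 CPM.

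The S genes also fell from progenitors to neurons, over a smaller span. Their sum was 1025 and 883 CPM in the KO and 1160 and 1046 CPM in the control libraries in the *Pax6/Slc1a3* gate. It was 376 and 307 against 570 and 358 CPM in the *Eomes* gate. Unlike the G2/M sum it was lower in every library in the *Eomes/Neurod* gate, at 259 and 288 against 246 and 304 CPM. In excitatory neurons it was 153 and 156 against 161 and 156 CPM. *Pola1* alone held much of it. Without that gene the sums of these gates, in the same order, were 527 and 442 against 616 and 584 CPM, 210 and 177 against 300 and 215 CPM, 146 and 148 against 133 and 165 CPM, and 58.2 and 63.4 against 71.8 and 63.5 CPM. The S genes made up 17.9% to 23.5% of the joint S and G2/M sum in the *Pax6/Slc1a3* gate, 29.8% to 50.2% in the *Eomes* gate and 64.4% to 78.4% in excitatory neurons. These 3 gates did not overlap. Without *Pola1* the share in these 3 gates was 9.81% to 14.0%, 19.6% to 37.7% and 44.6% to 59.7%, again with no overlap. That share is given as a description and was not tested.

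Among the G2/M genes that results turned on, *Mki67*, which coats mitotic chromosomes and marks cycling cells, stood at 604 and 609 CPM in the KO and 710 and 587 CPM in the control libraries in the *Pax6/Slc1a3* gate. In excitatory neurons it stood at 8.96 and 9.36 against 18.4 and 5.45 CPM, a log2 difference of 5.53 (SE 0.39, edgeR adjusted p = 1.46e-10). The lowest progenitor library thus lay far above the highest neuronal one. *Top2a*, the topoisomerase that untangles chromosomes before they part, went from 462 and 480 against 383 and 429 CPM to 4.19 and 6.56 against 10.0 and 3.35 CPM (log2 difference 5.81, SE 0.44, edgeR adjusted p = 4.23e-10). *Cenpe*, the kinetochore motor that lines chromosomes up, went from 320 and 323 against 254 and 317 CPM to 3.47 and 7.28 against 8.45 and 4.02 CPM (log2 difference 5.30, SE 0.34, edgeR adjusted p = 3.47e-11). For each of these genes control replicate 1 was the highest of the neuronal libraries.

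*Kif11*, the motor that pushes the spindle poles apart, had a log2 difference of 5.98 (SE 0.39), from 235 to 277 CPM in progenitors to 1.77 to 3.64 CPM in excitatory neurons. *Knl1*, the kinetochore scaffold on which checkpoint proteins gather, had one of 5.99 (SE 0.31), from 229 to 274 CPM to 2.12 to 3.52 CPM. *Cenpf*, a large kinetochore protein, had one of 5.25 (SE 0.36), from 254 to 297 CPM to 2.38 to 8.78 CPM. The remaining 18 G2/M genes, among them the checkpoint kinase *Bub1*, the mitotic kinases *Plk1*, *Aurka* and *Aurkb*, the spindle factors *Tpx2*, *Nusap1* and *Hmmr*, the spindle pole protein *Aspm* and the cyclins *Ccna2*, *Ccnb1* and *Ccnb2*, were all called in the same direction. Excitatory neurons kept 0.66% (*Iqgap3*) to 4.71% (*Plk1*) of the progenitor level of 23 of them, and 16.1% for *Ccnb2*. Called doublets made up 0.34% to 2.11% of the *Pax6/Slc1a3* gate and leaving them out kept all 43 calls, and the part of RNA from broken cells in the residual neuronal level was not tested.

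Of the S genes, *Mcm6*, a subunit of the helicase, stood at 78.2 and 65.0 CPM in the KO and 85.1 and 89.4 CPM in the control libraries in the *Pax6/Slc1a3* gate and at 3.94 and 6.06 against 6.89 and 4.95 CPM in excitatory neurons (log2 difference 3.36, SE 0.13, edgeR adjusted p = 7.4e-14). *Rrm1*, the large subunit of ribonucleotide reductase, had a log2 difference of 2.41 (SE 0.11), from 59.0 to 72.5 CPM to 7.70 to 11.2 CPM. *Tyms*, thymidylate synthase, had one of 3.04 (SE 0.13), from 60.7 to 70.5 CPM to 4.81 to 6.36 CPM. The loading factors *Cdc6* and *Cdt1* and the helicase subunits *Mcm2*, *Mcm3* and *Mcm5* were low in excitatory neurons, each at no more than 2.57 CPM in any library.

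*Mcm7*, another helicase subunit, behaved least like its list. It stood at 52.5 and 37.9 against 49.0 and 50.9 CPM in progenitors and at 20.5 and 18.02 against 19.4 and 19.6 CPM in excitatory neurons, which kept 40.7% of the progenitor level, more than for any other member. The locus (GRCm39 chromosome 5, 138162844 to 138170684, minus strand) holds the microRNA genes *Mir106b*, *Mir93* and *Mir25* and overlaps the ends of *Cops6* and *Ap4m1*, both protein-coding. Whether the counting separated strands is not given in the sources used here, so reads of these neighbours cannot be told apart from those of *Mcm7*. In all, 11 of the 43 genes overlap a protein-coding gene and 23 overlap a gene on the opposite strand.

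**Figure D2:**
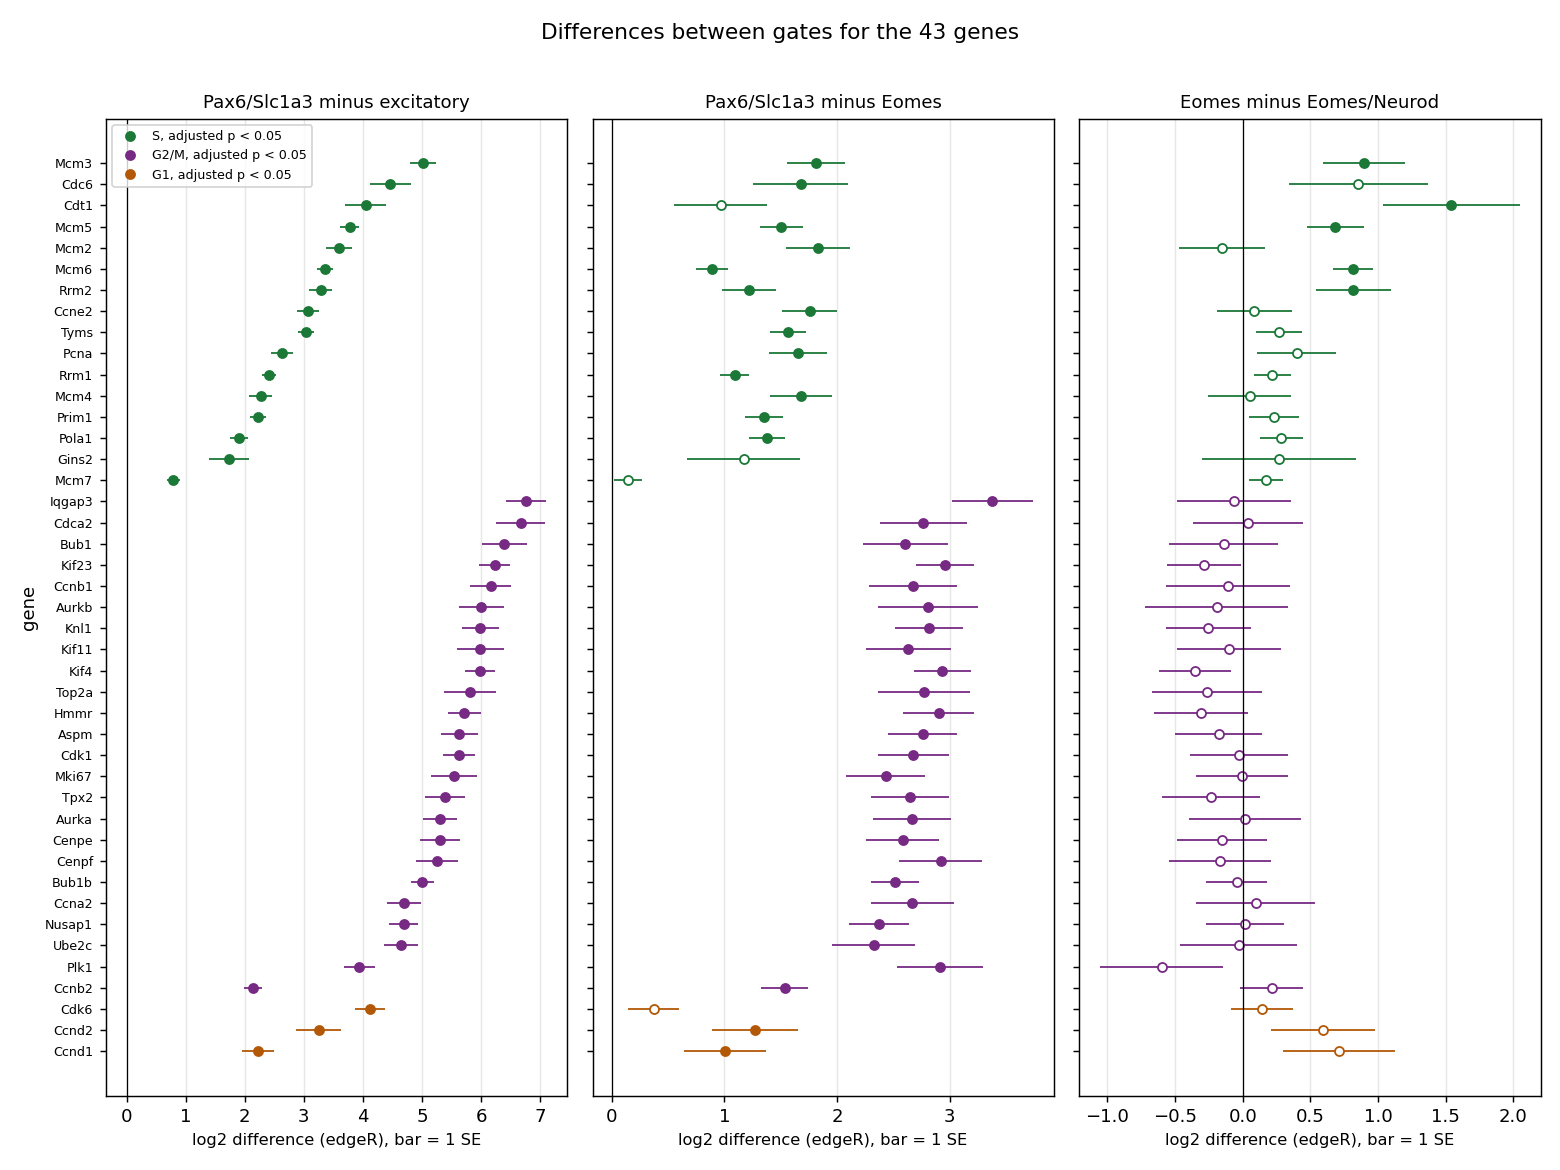
edgeR log2 differences of the 43 genes (points, bars of 1 SE) for 3 pairs of gates, with filled points at an adjusted p under 0.05. All 43 points are filled in the first panel (35.5% of all genes were higher) and 39 in the second (22.5%). In the third 5 are filled, all S genes, a share near the 7.8% of all genes, and the G2/M points lie around 0.

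The steps within the progenitors were tested in the same fit. Between the *Eomes* gate and excitatory neurons 40 of the 43 genes were higher, against 23.0% of all genes, with a median log2 difference of 2.49. The 3 that did not pass were *Mcm4*, *Gins2* of the helicase complex and the mitotic kinase *Plk1*. Between the *Pax6/Slc1a3* and the *Eomes* gate 39 were higher in the first, against 22.5% of all genes, with medians of 2.68 for G2/M, 1.44 for S and 1.01 for G1 genes. All 24 G2/M genes passed, and the 4 genes that did not were *Mcm7* (log2 difference 0.14, SE 0.13), *Gins2* (1.17, SE 0.50), *Cdt1* (0.97, SE 0.41) and *Cdk6* (0.37, SE 0.23).

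At the step from the *Eomes* to the *Eomes/Neurod* gate few members passed. In the *Eomes* gate 5 of the 43 were higher by edgeR, a share near the 7.8% of all genes (9.33% were lower). DESeq2 also called 5, but the share of all genes it called is not given here, so that count cannot be weighed. The difference between the S and G2/M lists was not tested. None was lower by edgeR, also at an unadjusted p under 0.05, or by DESeq2. All 5 were S genes: *Mcm6* (log2 difference 0.81, SE 0.15, adjusted p = 0.000845), *Mcm5* (0.68, SE 0.21, adjusted p = 0.032), *Cdt1* (1.54, SE 0.51, adjusted p = 0.0425), *Rrm2* (0.82, SE 0.28, adjusted p = 0.0494) and *Mcm3* (0.90, SE 0.30, adjusted p = 0.0495). *Mcm6* stood at 36.1 and 33.7 against 48.8 and 45.9 CPM in the *Eomes* gate and at 19.4 and 19.6 against 19.8 and 21.5 CPM in the *Eomes/Neurod* gate, with no overlap. The fitted difference was above 0 for 15 of 16 S genes (median 0.28), 10 of them not called, as for 50.1% of all genes, and *Mcm2* was at -0.15. It was below 0 for 19 of 24 G2/M genes (median -0.12, none called), the 5 others being *Ccnb2*, *Ccna2*, *Cdca2*, *Aurka* and *Nusap1* at 0.01 to 0.21.

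This count moved with the processing. Leaving out 1 library gave 1 to 3 calls (4.45% to 5.95% of all genes were then higher), the lowest without control replicate 1, where *Kif4* was also called lower, and requiring 2 transcripts for each gate gene gave 1, with *Kif23* and *Kif4* lower (5.88% and 7.15% of all genes). Thinning all nuclei to 5000 transcripts gave 0 (2.25% of all genes). The *Eomes/Neurod* gate had the highest percentage of called doublets of the 6 gates in every library, up to 10.2% in KO replicate 2. Without the *Trp73* or *Reln* nuclei the count was again 5 (7.67% of all genes).

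By library, 39 of the 43 genes were higher in the *Pax6/Slc1a3* than in the *Pax6/Slc1a3/Eomes* gate in 4 of 4 libraries (25.6% of all genes), and 34 were higher in the *Pax6/Slc1a3/Eomes* than in the *Eomes* gate (21.1%). From the *Eomes* to the *Eomes/Neurod* gate 6 were higher in the first in 4 of 4 libraries (25.6% of all genes), and from the *Eomes/Neurod* gate to excitatory neurons all 43 were (45.6%). None of the 24 G2/M genes was among the 6. The gates of one library come from the same embryo, so these counts describe 4 embryos.

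The G1 genes had patterns of their own. *Cdk6* overlaps 6 genes on the opposite strand, whose reads cannot be told apart from its own. *Cdk6*, the kinase partner of D-type cyclins, stood at 315 and 323 CPM in the KO and 455 and 502 CPM in the control libraries in the *Pax6/Slc1a3* gate, at 257 and 247 against 421 and 226 CPM in the *Eomes* gate and at 194 and 208 against 244 and 268 CPM in the *Eomes/Neurod* gate. In excitatory neurons it stood at 12.3 and 17.8 against 21.03 and 14.0 CPM (log2 difference from progenitors 4.12, SE 0.25, edgeR adjusted p = 2.29e-11). *Ccnd2*, a D-type cyclin of radial glia, stood at 270 and 266 against 340 and 363 CPM in the *Pax6/Slc1a3* gate and at 107 and 100.6 against 147 and 136 CPM in the *Eomes* gate, and was at 17.7 to 27.0 CPM in excitatory neurons (log2 difference from progenitors 3.25, SE 0.38). *Ccnd1* was a low count throughout, at 5.54 and 13.9 against 13.4 and 23.7 CPM in progenitors and 1.52 to 2.28 CPM in excitatory neurons (2.22, SE 0.27).

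**Figure D3:**
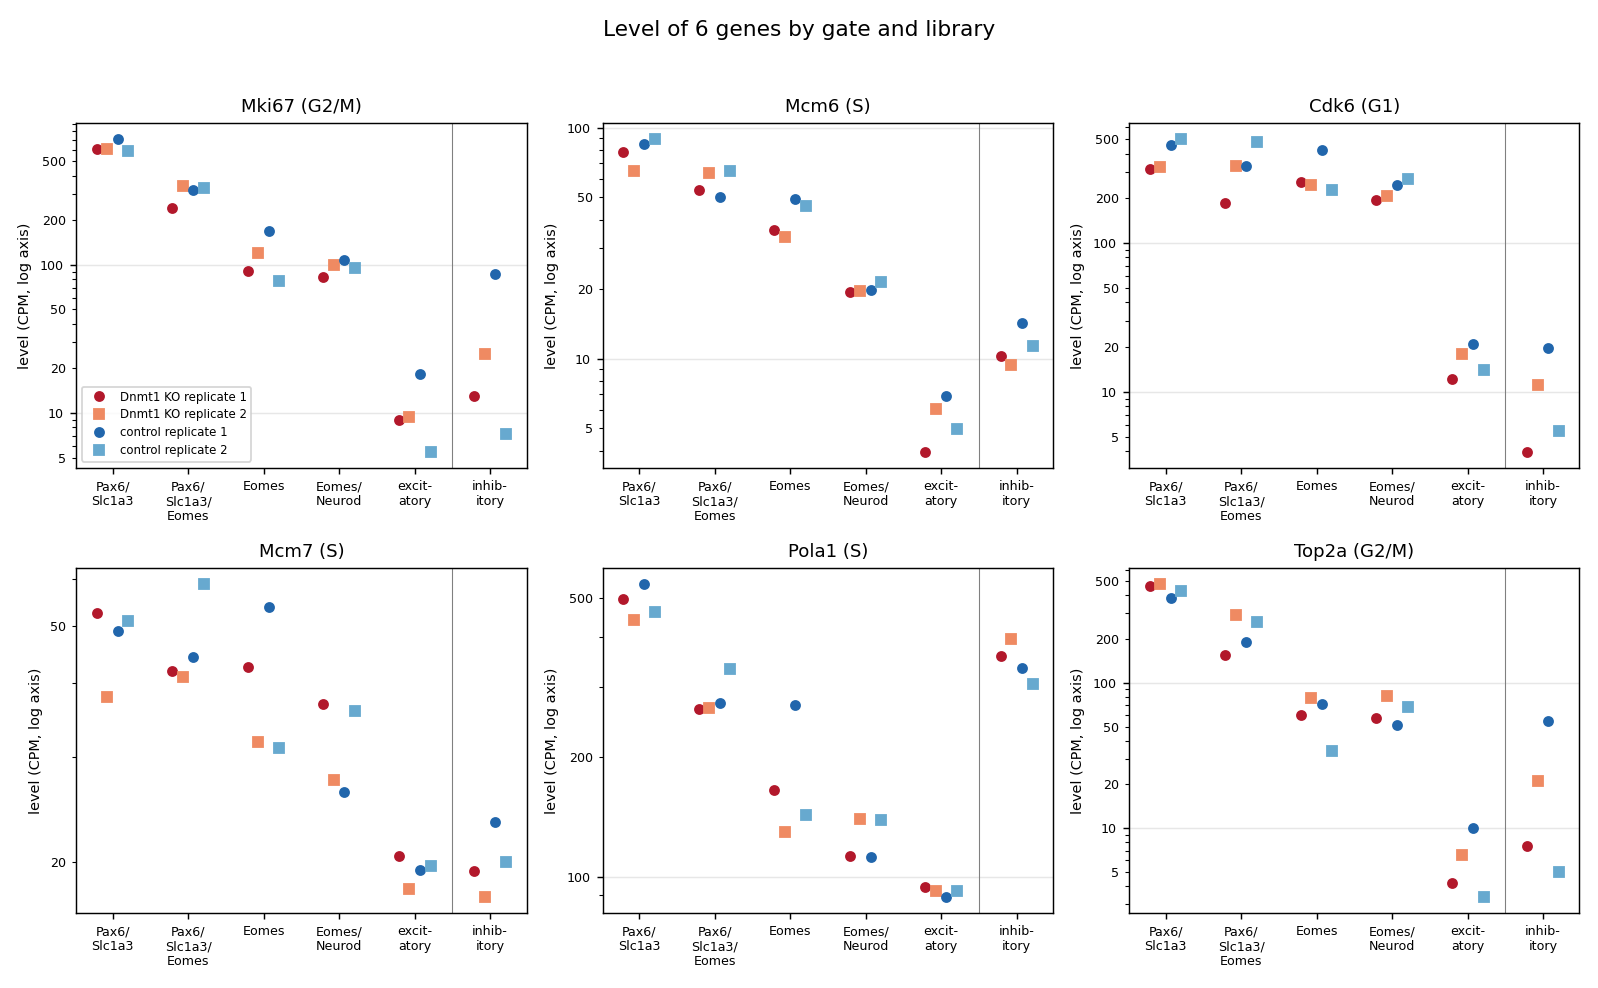
CPM (log axis) of *Mki67*, *Mcm6*, *Cdk6*, *Mcm7*, *Pola1* and *Top2a* in 6 gates, 1 point per library. *Mki67*, *Top2a* and *Mcm6* are higher in progenitors than in excitatory neurons, *Cdk6* lies at 186 to 502 CPM in the 4 gates before them, *Mcm7* keeps 18.02 to 20.5 CPM there, and *Pola1* is at 306 to 396 CPM in inhibitory neurons.

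*Pola1*, the catalytic subunit of DNA polymerase alpha, split the 2 kinds of neuron. It stood at 499 and 442 CPM in the KO and 544 and 461 CPM in the control libraries in the *Pax6/Slc1a3* gate, and at 94.6 and 92.2 against 89.1 and 92.1 CPM in excitatory neurons. In inhibitory neurons it stood at 359 and 396 against 334 and 306 CPM, 3.79 times the excitatory mean and without overlap between the gates. Without *Pola1* the S sum was 82.3 and 80.1 against 128 and 86.4 CPM in inhibitory and 58.2 and 63.4 against 71.8 and 63.5 CPM in excitatory neurons, so this sum was higher in inhibitory neurons too, by less and without overlap, although *Gins2* and *Mcm4* had lower means there (ratios 0.76 and 0.78) and *Cdt1* and *Mcm7* nearly equal ones (1.01 and 1.03). Of all 16, 7 were higher in inhibitory neurons in 4 of 4 libraries, as 27.1% of all genes were, and after *Pola1* the ratio of means was highest among these 7 in *Tyms* (2.22) and *Mcm6* (2.07). *Pola1* spans 327.4 kb on the minus strand of the X chromosome (GRCm39, 92348365 to 92675813) and overlaps 3 genes, 2 of them on the opposite strand, whose reads cannot be told apart from its own.

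The inhibitory gate also held G2/M transcripts above the excitatory gate, at 116 and 190 against 455 and 66.7 CPM, most of them in control replicate 1. *Mki67* stood there at 13.0 and 25.0 against 87.2 and 7.17 CPM. *Ccnd2* followed with 17.7 and 45.5 against 132 and 11.3 CPM, so control replicate 1 was highest and control replicate 2 lowest. Of the 24 G2/M genes 17 were higher in inhibitory than in excitatory neurons in 4 of 4 libraries, against 27.1% of all genes, and the mean ratio ran from 1.15 (*Plk1*) to 6.19 (*Cdca2*). The inhibitory gate kept nuclei with *Pax6* or *Slc1a3* alone, which the excitatory gate left out. Their part in these levels and in the S sum was not tested.

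Promoters are shown because the S and G2/M genes moved together between gates yet in different amounts. Windows from 250 bases before to 50 after the start of transcription were taken from RefSeq (GRCm38.p6, a different build from that of the counts) for 34 of the 43 genes, 35 windows in all, out of 32851. They were searched on both strands for the CCAAT box, for the CHR element of late cell-cycle genes as the word TTTGAA or the word TTTAAA, and for the E2F word TTCCCGC with its variants of the form TTCGCGC, of the form TTGCCGC and of the form TTGGCGC. An E2F word overlapped a CCAAT or CHR word in 3 of the members' windows. The capitals below mark these words in 3 S and 3 G2/M genes, chosen as those of highest mean CPM in the *Pax6/Slc1a3* gate with a window. The coordinates are chrX:93632106-93632405 (minus strand) for *Pola1*, chr1:128359656-128359955 (minus) for *Mcm6*, chr7:102441445-102441744 (plus) for *Rrm1*, chr7:135716330-135716629 (minus) for *Mki67*, chr11:99024140-99024439 (minus) for *Top2a* and chr3:135212313-135212612 (plus) for *Cenpe*.
Pola1: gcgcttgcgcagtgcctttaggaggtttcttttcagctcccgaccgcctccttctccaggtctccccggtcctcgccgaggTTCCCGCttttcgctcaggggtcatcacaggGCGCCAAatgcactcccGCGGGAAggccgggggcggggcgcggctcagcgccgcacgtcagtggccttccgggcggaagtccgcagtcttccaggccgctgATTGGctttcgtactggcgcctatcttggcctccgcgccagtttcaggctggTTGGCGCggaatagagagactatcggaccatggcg
Mcm6: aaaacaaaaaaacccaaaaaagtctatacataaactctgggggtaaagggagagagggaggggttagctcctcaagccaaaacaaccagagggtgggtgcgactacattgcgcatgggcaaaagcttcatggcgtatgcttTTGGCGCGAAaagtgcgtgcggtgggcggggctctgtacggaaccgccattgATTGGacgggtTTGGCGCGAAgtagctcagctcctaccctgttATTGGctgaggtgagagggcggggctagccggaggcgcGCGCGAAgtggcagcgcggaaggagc
Rrm1: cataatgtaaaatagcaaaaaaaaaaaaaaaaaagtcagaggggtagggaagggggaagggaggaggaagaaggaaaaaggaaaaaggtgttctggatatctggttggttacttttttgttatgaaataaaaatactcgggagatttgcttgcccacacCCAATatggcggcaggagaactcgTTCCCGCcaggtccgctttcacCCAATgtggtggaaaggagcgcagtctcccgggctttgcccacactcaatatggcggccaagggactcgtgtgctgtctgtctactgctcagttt
Mki67: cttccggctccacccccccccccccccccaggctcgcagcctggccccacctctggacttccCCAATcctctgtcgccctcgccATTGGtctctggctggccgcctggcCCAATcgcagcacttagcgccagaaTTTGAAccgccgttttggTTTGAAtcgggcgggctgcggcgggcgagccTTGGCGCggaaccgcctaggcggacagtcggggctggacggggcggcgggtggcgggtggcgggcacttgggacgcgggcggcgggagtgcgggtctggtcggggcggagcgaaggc
Top2a: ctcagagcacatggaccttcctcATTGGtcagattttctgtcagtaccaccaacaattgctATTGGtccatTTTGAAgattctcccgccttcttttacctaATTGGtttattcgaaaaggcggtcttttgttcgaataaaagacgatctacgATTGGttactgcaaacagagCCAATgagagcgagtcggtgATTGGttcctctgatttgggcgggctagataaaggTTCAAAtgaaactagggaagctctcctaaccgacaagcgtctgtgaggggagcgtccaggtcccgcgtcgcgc
Cenpe: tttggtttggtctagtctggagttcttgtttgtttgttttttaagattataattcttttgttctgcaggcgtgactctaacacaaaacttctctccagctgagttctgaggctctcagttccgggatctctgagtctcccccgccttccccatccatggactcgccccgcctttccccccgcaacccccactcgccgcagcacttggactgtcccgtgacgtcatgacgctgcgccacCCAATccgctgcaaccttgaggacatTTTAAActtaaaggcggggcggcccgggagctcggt

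In these windows *Pola1* and *Mcm6* hold 4 and 5 E2F words and no CHR word, and *Rrm1* holds 1 E2F word and no CHR word. Some of the *Mcm6* words lie on opposite strands of the same stretch (TTGGCGCGAA) and share bases. The 5 are therefore matches and not separate sites, whereas the 4 of *Pola1* do not overlap. *Top2a* holds 6 CCAAT boxes and 2 CHR words, *Cenpe* 1 of each, and neither holds an E2F word, whereas *Mki67* holds all 3 kinds, with 3 CCAAT, 2 CHR and 1 E2F word. Over all members an E2F word was present in 11 of 14 S windows (78.6%) and 4 of 20 G2/M windows (20.0%), against 9.57% of all windows. A CHR word was present in 3 of 14 S windows (21.4%) and 18 of 20 G2/M windows (90.0%), against 27.6% of all windows. The CCAAT box did not part the lists, with 11 of 14 (78.6%) and 17 of 20 (85.0%) against 37.4%. CCAAT and CHR words stood together in 16 of 20 G2/M windows (80.0%), 3 of 14 S windows (21.4%) and 10.7% of all windows. These are matches of letters, without a test.

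Single nuclei were then read after thinning each to 5000 transcripts, and a nucleus with at least 2 transcripts of a list was counted. For the G2/M genes these were 65.6% (95% exact binomial interval 62.0% to 69.1%) and 69.8% of nuclei in the *Pax6/Slc1a3* gate of the KO libraries and 71.1% and 73.5% in the controls. In the *Eomes* gate they were 19.1% and 19.5% against 26.6% and 10.8%, the last being 4 of 37 nuclei, and in the *Eomes/Neurod* gate 12.2% and 15.4% against 15.7% and 14.5%. Excitatory neurons, which do not divide, gave the background of 2.72% and 3.35% against 5.08% and 2.16%. The median depth was 10519 to 16324.5 transcripts in the *Pax6/Slc1a3* gate and 13877 to 22851 in the excitatory gate of the libraries. Gates were set at this full depth, before thinning, and control replicate 2 was the deepest library in both. At full depth the *Pax6/Slc1a3* shares were 73.5% and 76.2% against 79.0% and 87.3%, and the excitatory ones 13.1% and 15.0% against 23.6% and 18.2%. Intervals cover counting error only.

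The S genes gave 72.0% and 65.2% against 77.5% and 73.9% in the *Pax6/Slc1a3* gate and 19.4% and 19.5% against 18.3% and 19.3% in excitatory neurons. Without *Pola1* these became 57.6% and 48.2% against 64.6% and 59.9%, and 4.82% and 5.54% against 5.08% and 4.57%. In inhibitory neurons the S share was 57.9% and 51.8% against 43.8% and 45.1%, but only 5.56% and 7.65% against 12.2% and 7.94% without *Pola1*. A single gene thus accounted for most of the neurons counted as holding S transcripts.

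Many nuclei of the *Pax6/Slc1a3* gate held transcripts of both lists, with *Pola1* counted among the S genes. In the *Pax6/Slc1a3* gate 47.8% and 47.8% of nuclei against 54.4% and 54.0% held at least 2 of each list, and 10.2% and 12.8% against 5.82% and 6.62% held neither. The KO libraries were thus lower than the controls in the first share and higher in the second. Of the nuclei with at least 2 G2/M transcripts 72.9% and 68.5% against 76.5% and 73.5% held at least 2 S transcripts. Of the other nuclei 70.3% and 57.5% against 79.8% and 75.0% did. Apart from KO replicate 2, holding S transcripts thus differed little with holding G2/M transcripts, which was not tested. No phase was assigned to any nucleus.

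**Figure D4:**
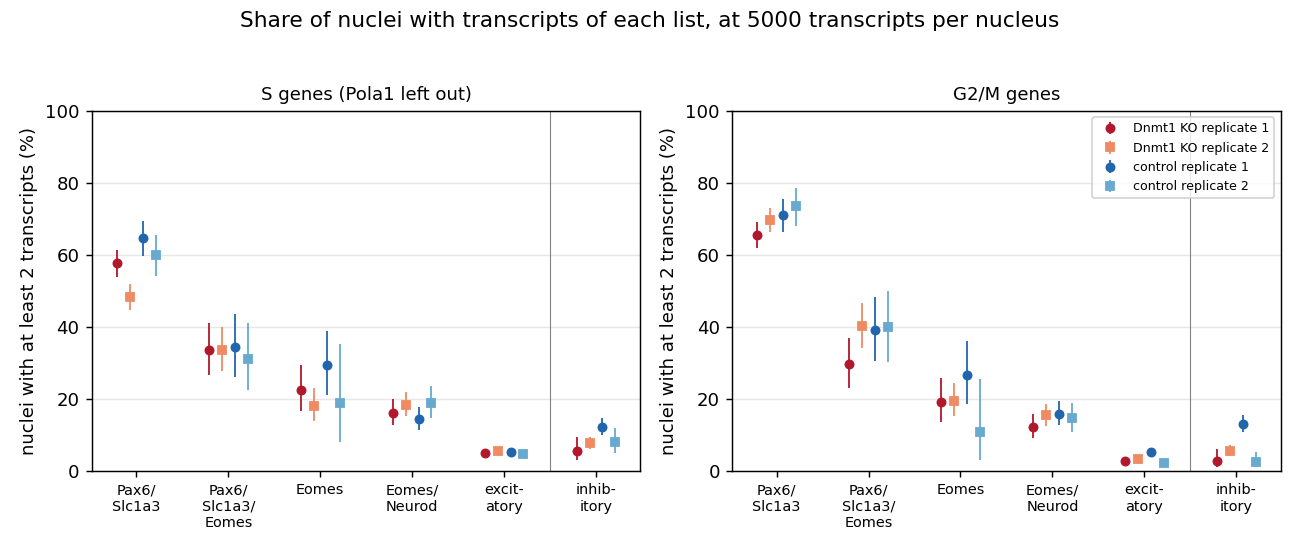
Percentage of nuclei with at least 2 transcripts of 15 S genes (left, *Pola1* left out) and of the 24 G2/M genes (right) in 6 gates, after thinning to 5000 transcripts per nucleus, with 95% exact binomial intervals and 1 point per library. The G2/M share runs from 65.6% to 73.5% in the Pax6/Slc1a3 gate to 2.16% to 5.08% in excitatory neurons.

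Between genotypes no member passed the test in any population tested (edgeR quasi-likelihood test, 2 libraries per group, adjusted p over all genes). The *Pax6/Slc1a3/Eomes* gate was not tested between genotypes. Of all genes 0.0% were called in the *Pax6/Slc1a3*, *Eomes*, *Eomes/Neurod*, excitatory and inhibitory gates and over all nuclei, where 43, 34, 42, 43, 36 and 43 members were tested. At an unadjusted p under 0.05 edgeR had 7, 3, 1, 0, 0 and 5 members, among 1020, 339, 618, 1018, 421 and 1610 genes. The genes tested were 13883, 10170, 13437, 17394, 12882 and 21504. DESeq2 called 0 members in each, out of 44, 1, 5, 53, 3 and 199 genes called in all (at most 0.925% of those tested). The study names separate brains for the libraries of a genotype, so the p-values measure the spread between embryos, in which sex and, among the controls, batch also differ.

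In the *Pax6/Slc1a3* gate the fitted difference was below 0 for 16 of 16 S genes (52.0% of all genes), with a median log2 of -0.33 and a range of -0.78 to -0.02, against a median of -0.01 over all genes. Both KO libraries lay below both controls for 11 of the 16 (25.0% of all genes did so) and above them for none (15.7% of all genes). The 11 were *Mcm2*, *Mcm3*, *Mcm4*, *Mcm5*, *Mcm6*, *Pcna*, *Rrm1*, *Rrm2*, *Gins2*, *Cdc6* and *Ccne2*. Within batch 1 alone both KO libraries lay below control replicate 1 for 15 of 16 (37.5% of all genes). Of the 28 further S-phase genes 10 lay below and 1 above, with a median of -0.11. KO replicate 2 was the lowest library for most of them and the radial glial markers were lowest in KO replicate 1, at 2125 CPM against 3088 to 3362 CPM, and their part in the result was not tested.

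*Mcm5* had the smallest p of the S genes, at 38.5 and 30.3 CPM in the KO and 53.3 and 45.9 CPM in the control libraries (log2 difference -0.50, SE 0.17, edgeR adjusted p = 0.664). The groups did not overlap but KO replicate 1 came close to control replicate 2. *Cdk6* had the smallest p of all members, at 315 and 323 against 455 and 502 CPM (-0.55, SE 0.11, edgeR adjusted p = 0.664), and *Ccnd2* came next at 270 and 266 against 340 and 363 CPM (-0.36, SE 0.10, edgeR adjusted p = 0.664). In both the replicates of a genotype lay close together and the groups were apart, yet neither passed over all genes. *Cdk6* was lower in both KO libraries than in both controls in the *Eomes/Neurod* gate too (-0.35, SE 0.13, edgeR adjusted p = 0.905), but not in the *Eomes* gate, where control replicate 2 was lowest.

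The summed G2/M genes of the same gate leaned the other way, whereas the share of nuclei with at least 2 G2/M transcripts was lower in both KO libraries (65.6% and 69.8%) than in both controls (71.1% and 73.5%). The 95% intervals of both KO libraries (62.0% to 69.1% and 66.4% to 73.0%) overlapped those of both controls (66.4% to 75.6% and 68.0% to 78.5%). These intervals cover counting error only and not the spread between embryos. The fitted difference was above 0 for 20 of 24 G2/M genes (48.0% of all genes), with a median log2 of 0.09. Of these 24, 9 had both KO libraries above both controls (15.7% of all genes) while *Bub1b* had both below (25.0%). Within batch 1 alone both KO libraries lay above control replicate 1 for 18 of 24 (30.9% of all genes). The 9 were *Top2a*, *Aspm*, *Kif23*, *Kif4*, *Knl1*, *Cenpe*, *Bub1*, *Aurka* and *Hmmr*. *Mki67* was not among them, since control replicate 1 was the highest library at 710 CPM. The summed difference between genotypes was 183 CPM for G2/M and -148 CPM for S genes, and the G2/M value rose to 707 CPM when nuclei were kept by mapped reads and to 501 CPM with gates at 2 transcripts. The G2/M difference was 114 CPM without control replicate 1. The S difference was -77.4 CPM without KO replicate 2, -91.3 CPM without control replicate 1 and -219 CPM without KO replicate 1.

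**Figure D5:**
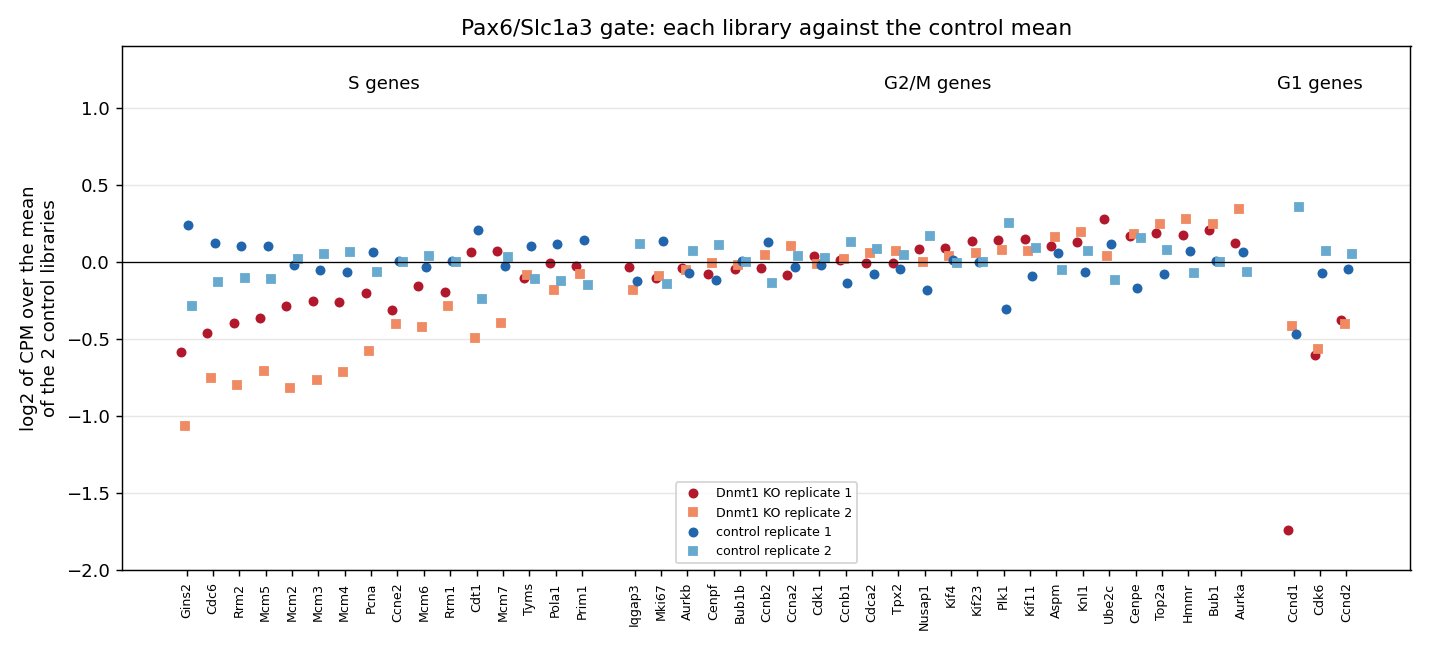
Level of each of the 43 genes in the 4 libraries of the Pax6/Slc1a3 gate, as log2 of CPM over the mean of the 2 control libraries, ordered within each list by the ratio of group means. The KO points of 11 S genes, of the G2/M gene *Bub1b* and of *Ccnd2* and *Cdk6* lie below both control points (25.0% of all genes). Those of 9 G2/M genes lie above (15.7% of all genes), and no gene passed the test.

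In the *Eomes* gate both KO libraries lay below both controls for 7 S genes and above them for 6 G2/M genes (19.7% and 13.0% of all genes tested), and 6 and 4 of these had enough counts to be tested. The members of smallest p were *Rrm2*, the small subunit of ribonucleotide reductase, at 5.52 and 5.88 against 19.0 and 13.3 CPM (log2 difference -1.47, SE 0.38), *Cdt1* at 3.01 and 2.48 against 6.62 and 11.8 CPM (-1.64, SE 0.56) and *Cenpf* at 36.1 and 46.1 against 28.1 and 14.8 CPM (0.94, SE 0.34), each with an edgeR adjusted p of 1. Control replicate 2 had 42 nuclei in this gate, and the Cajal-Retzius list was highest there. The difference of the genotype effect between the *Pax6/Slc1a3* and *Eomes* gates was tested as an interaction and called 0 members and 0.0% of the 13839 genes tested. DESeq2 called 3 genes, with 0 members among them. At an unadjusted edgeR p under 0.05 there were 2 members and 496 genes. Those 2 were *Cenpf* (-0.90, SE 0.34) and *Ccnb1* (-1.32, SE 0.52), again with an adjusted p of 1.

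In the *Eomes/Neurod* gate the median fitted difference was -0.06 for S and 0.26 for G2/M genes. Over all members tested it was 0.14, and it turned to -0.07 with nuclei kept by mapped reads and to -0.10 after thinning. With 1 library left out it ran from 0.01 (without KO replicate 2) and 0.05 (without control replicate 1) to 0.22 (without KO replicate 1) and 0.26 (without control replicate 2). Both KO libraries lay above both controls for 11 of 24 G2/M genes (16.6% of all genes) and below them for *Cenpf* alone (19.3%), and 1 S gene lay above and 2 below. *Cdca2*, which recruits a phosphatase to mitotic chromosomes, stood at 26.7 and 29.8 against 19.4 and 23.95 CPM (0.38, SE 0.18, but -0.10 after thinning), and *Cenpf* stood at 28.0 and 31.9 against 39.4 and 35.9 CPM (-0.32, SE 0.16), both with an edgeR adjusted p of 0.905. *Cenpf* thus leaned to opposite sides in the 2 *Eomes* gates.

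In excitatory neurons both KO libraries lay below both controls for 5 S genes and 1 G2/M gene (23.7% of all genes) and above them for *Pola1* and *Ccnb2* (15.0% of all genes). Out of 43 members both counts are smaller shares than those of all genes. *Rrm2* was at 1.45 and 1.37 against 2.34 and 1.93 CPM (-0.57, SE 0.25), *Mcm2* at 1.05 and 1.03 against 1.53 and 1.498 CPM (-0.51, SE 0.26) and *Mcm5* at 1.95 and 1.74 against 2.57 and 2.26 CPM (-0.36, SE 0.23), with edgeR adjusted p of 0.786, 0.786 and 0.793. All 3 were at under 3 CPM in every library.

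In inhibitory neurons, which include the targeted cells, 9 S genes lay below in both KO libraries, of which 6 were among the 12 with enough counts to be tested (23.7% of all genes tested), and *Pola1* and *Ccnd1* lay above (10.9%), while none of the 24 G2/M genes separated the groups. *Ccnd1* stood at 2.36 and 2.97 against 1.47 and 1.303 CPM (1.02, SE 0.40), *Pola1* had a difference of 0.30 (SE 0.13) and *Rrm2* stood at 1.58 and 1.39 against 4.76 and 1.95 CPM (-1.19, SE 0.56), all with an edgeR adjusted p of 0.967. The median over the members tested was -0.48 and turned to 1.07 without control replicate 1, the library that stood apart in this gate.

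Over all retained nuclei the fitted differences of the 24 G2/M genes had a median log2 of 0.38. For 18 of these genes both KO libraries lay above both controls (19.3% of all genes), while *Cdk6* lay below (20.7%). *Hmmr*, a spindle assembly factor, stood at 18.9 and 16.3 against 12.4 and 9.77 CPM (0.65, SE 0.15), *Bub1* at 29.2 and 21.7 against 18.5 and 15.5 CPM (0.56, SE 0.18) and *Knl1* at 59.3 and 44.8 against 40.0 and 34.0 CPM (0.47, SE 0.16), each with an edgeR adjusted p of 0.649. KO replicate 1 was the highest library for all 3. The median over all 43 members was 0.26, and it was 0.08 without KO replicate 1 and 0.40 without KO replicate 2. In KO replicate 1, 13.4% of the retained nuclei fell in the *Pax6/Slc1a3* gate, against 6.67% in KO replicate 2 and 5.75% and 5.95% in the controls, and in sums over all nuclei more cells of a type and more RNA per cell cannot be told apart.

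The further genes of the pathway followed the members between the *Pax6/Slc1a3* gate and excitatory neurons. Of 28 further S-phase genes 28 were higher in the *Pax6/Slc1a3* gate than in excitatory neurons, where 35.5% of all genes were higher. They were led by *E2f8* (log2 difference 6.33) and *Clspn* (5.84), which relays replication stress. Of 41 further G2/M genes 41 were higher, led by *Dlgap5*, a spindle microtubule protein (6.42). Of 15 genes of the G1 and E2F list 14 were higher, led by *Foxm1*, the transcription factor of the mitotic genes (5.52). Between the *Eomes* and *Eomes/Neurod* gates *Hells* of the further S list was higher in the first (0.67, SE 0.12, edgeR adjusted p = 0.00098). *Ncapd2* of the further G2/M list was lower there (-0.44, SE 0.14, edgeR adjusted p = 0.041). Of all genes 7.8% were higher and 9.33% lower at that step.

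Genes that slow or end the cycle moved in both directions. Of 10 tested, 7 were higher in the *Pax6/Slc1a3* gate than in excitatory neurons (35.5% of all genes were higher and 35.7% lower), among them the CDK inhibitor *Cdkn2c* (5.98, SE 0.29), the pocket protein gene *Rbl1* (3.28, SE 0.17) and the antiproliferative *Btg2* (2.16, SE 0.20), and the CDK inhibitor *Cdkn1c* was lower (-1.71, SE 0.30). Against the *Eomes* gate 4 were higher and 4 lower (22.5% and 23.3% of all genes), the latter being *Gadd45g* (-3.23, SE 0.37), *Cdkn1c* (-1.54, SE 0.42), *Btg2* (-1.52, SE 0.21) and *Rb1* (-0.29, SE 0.09). *Gadd45g* (1.43, SE 0.33) and *Btg2* (1.10, SE 0.21) were higher in the *Eomes* than in the *Eomes/Neurod* gate. Between genotypes edgeR and DESeq2 called 0 of the 96 further genes in every population tested. In the *Pax6/Slc1a3*, *Eomes*, *Eomes/Neurod*, excitatory and inhibitory gates and over all nuclei 94, 75, 93, 93, 74 and 96 of them were tested. At an unadjusted edgeR p under 0.05 there were 3, 1, 2, 1, 1 and 8, and the counts over all genes are those given above for the members.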

How the data were processed

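The authors prepared nuclei from frozen tissue by sucrose gradient ultracentrifugation, made split-pool libraries (Evercode WT, Parse Biosciences), processed the reads in Trailmaker and deposited unfiltered matrices of counts, whole numbers of transcripts per gene and nucleus, with the genome named as mm39 in the submitters' processing notes. The aligner, strand handling and intron counting are not given in the sources used here. The study kept nuclei of 1500 to 60000 reads with a mitochondrial limit of 10%. Here the window was applied to transcripts, 29656 of 1127729 barcodes were kept, and no kept nucleus passed the mitochondrial limit. The members and all lists were chosen with earlier results of these data known.

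Gates used 12 genes at 1 transcript or more and none of the 43, and 35.9% to 44.1% of nuclei fell in no gate and none in several. Counts were summed per library and gate, and tested in edgeR 4.0.16 (R 4.3.3) by quasi-likelihood with TMM scaling, filterByExpr and Benjamini-Hochberg adjustment at 0.05 over all genes. The comparison of gates was one fit over 24 sums with library as a block and the gate genes left out, and the comparison of genotypes one fit per population. DESeq2 1.42.0 was an alternative. Doublets were called with Scrublet in scanpy 1.11.5 at an expected rate of 5% (2.87%, 5.49%, 4.40% and 7.73% of nuclei called) and were kept in the reported values. List sums and shares of nuclei got no test. For shares, each nucleus was thinned to 5000 transcripts and shallower ones left out (268 to 609 per library over all nuclei). The scripts were tested on simulated data.

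Named genes were given with library values, ranges over libraries or log2 differences alone. They included the G1 members and the 4 S and 6 G2/M members of highest mean CPM in the *Pax6/Slc1a3* gate. The 3 members of smallest p in each genotype fit were also named, as were the members that departed from their list between gates. So were those called there from few and up to 4 genes of each further list by fold change. *Mcm7*, *Pola1* in neurons and the genes named in counts were described after their values were seen. Same-numbered libraries did not deviate together, with correlations of -0.16 to 0.01 over genes in the 6 populations. Gene positions are from GENCODE vM39 on GRCm39, and promoters from RefSeq on GRCm38.p6.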

Additional observations from a re-analysis of the deposited data

Results flagged for a closer look

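For 3 G2/M genes the difference between the *Eomes* and the *Eomes/Neurod* gate pointed to opposite sides in every library of the 2 genotypes, above 0 in both KO libraries and below 0 in both controls. As log2 of CPM plus 1 in the *Eomes* minus the *Eomes/Neurod* gate, *Cenpf* was at 0.36 and 0.52 in the KO and -0.47 and -1.22 in the control libraries, which puts the genotypes 1.28 apart. *Ccnb1* was at 0.17 and 0.35 against -0.47 and -1.27, with the genotypes 1.13 apart. *Ube2c*, which works with the complex that ends mitosis to put ubiquitin on its targets, was at 0.53 and 0.16 against -0.05 and -2.04, with the genotypes 1.39 apart. Of all genes tested between gates 3.26% showed this pattern, and 3 of 43 members did. The difference was not tested. Control replicate 2 had 42 nuclei in the *Eomes* gate, with 1 transcript of *Ccnb1* and 0 of *Ube2c* there, so its values for these 2 genes rest on an offset added before the logarithm.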

How the results depend on the processing

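Of the counts and sums compared, 205 alternative values stayed within the spread between replicates or within 1.5 times the reported count and 16 did not. For single named genes 434 kept direction and side of the threshold, 29 lost their call and 1 turned. All 29 were among the 5 S genes higher in the *Eomes* than in the *Eomes/Neurod* gate. That count of 5 went to 2 without a low-count filter, 3 with nuclei kept by mapped reads, 2 without called doublets, 1 with gates at 2 transcripts (where *Kif23* and *Kif4* were lower) and 0 after thinning, and ranged from 1 to 3 with a library left out (*Kif4* was also called lower without control replicate 1). In the reported fit 7.8% of all genes were higher. For the filter, mapped reads and doublet settings the share of all genes is not given here, so those counts show only that the calls moved. *Mcm6* was in every set of calls but the empty one. The cause was not tested. Without a low-count filter 4 members were called lower in KO inhibitory neurons (*Ccnd2*, *Kif11*, *Top2a* and *Mki67*, all highest in control replicate 1) in place of 0 (0.697% of all genes were called lower there). *Cdca2* in the *Eomes/Neurod* gate turned from 0.38 to -0.10 after thinning.

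In the *Pax6/Slc1a3* gate the summed G2/M difference between genotypes of 183 CPM became 707 with nuclei kept by mapped reads and 501 with gates at 2 transcripts (114 to 253 with a library left out), and that of all 16 S genes, -148 CPM, ranged from -219 to -77.4. The share of nuclei with G2/M transcripts, 4.62 points lower in the KO, was -8.36 points unthinned (-6.74 to -2.51 with a library left out), and that with S transcripts, -7.08 points, ranged from -10.5 to -3.64. In the *Eomes* gate the S share of -4.02 points became -12.5 unthinned and 2.40 at 1 transcript (-9.34 to 1.302 with a library left out), and the G2/M share of 0.56 points became 8.51 at 1 transcript (-7.34 to 8.45 with a library left out). The sums of that gate ranged from -229 to -16.7 CPM for S and from -67.6 to 267 CPM for G2/M genes, so the sign of the G2/M sum and of both shares turned with a library left out. With a library left out, the count of members higher was 43 in progenitors against excitatory neurons, 37 to 40 in the *Eomes* gate against excitatory neurons and in the *Pax6/Slc1a3* against the *Eomes* gate, and 0 in each genotype comparison. With all libraries 35.5%, 23.0% and 22.5% of all genes were higher in these comparisons of gates, in that order.

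With the replicate number as a block, 0 members were called between genotypes in any population tested. At an unadjusted edgeR p under 0.05 there were 7 in the *Pax6/Slc1a3* gate, 1 each in the *Eomes* and *Eomes/Neurod* gates, 0 in both neuron gates and 11 over all nuclei. Of all genes there were 849, 310, 579, 915, 236 and 1337, with excitatory before inhibitory neurons. The genes tested were 13883, 10170, 13437, 17394, 12882 and 21504, as without the block. The labels do not say that a number marks a shared litter or day. In inhibitory neurons same-numbered libraries deviated against each other (r = -0.16), and there the crossed pairing, added after seeing the data, also called 0. It had 2 members and 718 of 12882 genes at an unadjusted edgeR p under 0.05. Scaling by library size alone and the *Eomes* gate without *Trp73* or *Reln* nuclei were likewise chosen after seeing the data. The *Eomes* gate of control replicate 2 rests on 42 nuclei with 240 G2/M transcripts in all.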
